A study of Homo sapiens with 17 samples.

Results

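The genes described are 8 tubulin genes, the α-tubulins TUBA1A, TUBA1B and TUBA1C, the β-tubulins TUBB, TUBB2A, TUBB2B and TUBB4B, and the γ-tubulin TUBG1. They were chosen by name from a table of 18869 genes that gives Ribo-STAMP editing and transcript abundance in 3 fractions of HEK293T cells. Each of the 8 names matched 1 gene. All 8 reached a TPM of 5 in each IP. The 9607 protein-coding genes (PCGs) that did so served as the reference for every percentile and share given here.

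Microtubules are polymers of α- and β-tubulin dimers, and γ-tubulin sits in the ring complex that starts them. Cells keep the pool of free dimers in check by autoregulation. When soluble tubulin is in excess, TTC5 recognises the N-terminal motif of a nascent chain (MREC in α-tubulins, MREI in β-tubulins) as it leaves the ribosome. TTC5 then brings SCAPER and, through CNOT11, the CCR4-NOT deadenylase to that ribosome, and the tubulin mRNA is degraded while it is being translated. The α- and β-tubulin mRNAs are the known substrates of this decay. TUBG1 is a relative whose protein does not begin with the motif.

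HEK293T is a long-established human cell line of embryonic kidney origin. In stable lentiviral lines, 50 ng/ml doxycycline for 24 h switched on either RPS2-STAMP, in which the C-to-U editor APOBEC1 is fused to the small ribosomal subunit protein RPS2, or Control-STAMP, which is APOBEC1 alone. Ribosomes that carry the fusion leave edits on the RNA they contact. After crosslinking with formaldehyde, RNA was taken from the Input and from immunoprecipitates of PABPN, the mainly nuclear poly(A) binding protein, and PABPC, its cytoplasmic counterpart. The study reports in its results that this experiment used cytoplasmic extract, which the sample labels leave unsaid. The 17 samples comprised 9 from RPS2-STAMP cells, 3 each of Input, PABPN IP and PABPC IP, and 8 from Control-STAMP cells, with 3 Input, 3 PABPN IP and 2 PABPC IP.

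Editing is given as normalized EPKM, edits scaled to transcript length and library size after removal of the control signal, and abundance as average TPM. A value "with PABPC" or "with PABPN" is that of the IP. Both are scaled to length, so levels may be set beside each other across genes. The table carries 1 pooled value per gene and fraction, so no value below has an SD, an n or a p, and neighbours in an order of levels cannot be separated by replicate spread. The number of reads behind each value is unknown, and so is which samples entered each average TPM, so that libraries of RPS2-STAMP and Control-STAMP cells may be mixed in it. The line was checked against markers in the Input. VIM had 184 TPM, LIN28B 37.7, NEFL 26.9, KRT18 24.8 and NEFM 9.00, while KRT8 (2.16) and PAX2 (0.797) were low. Of the markers of other cell types, COL1A1 (fibroblasts) had 1.90 TPM and CD14 (monocytes) 0.161, and PTPRC, HBB and ALB were not among the genes of the table.

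The start of the coding sequence is shown first, because autoregulation reads the peptide it encodes. The lines below give the first 30 coding bases of the canonical transcript of each gene in GENCODE release 44 on hg38, 5′ to 3′, with the first 4 codons in capitals.
TUBA1A: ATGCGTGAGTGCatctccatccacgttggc
TUBA1B: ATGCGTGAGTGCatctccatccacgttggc
TUBA1C: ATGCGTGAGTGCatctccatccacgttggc
TUBB: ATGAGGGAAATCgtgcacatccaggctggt
TUBB2A: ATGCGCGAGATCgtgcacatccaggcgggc
TUBB2B: ATGCGTGAGATCgtgcacatccaggcgggc
TUBB4B: ATGAGGGAAATCgtgcacttgcaggccggg
TUBG1: ATGCCGAGGGAAatcatcaccctacagttg

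The 3 α-tubulins were the same over all 30 bases. In the β-tubulins the 4 codons were spelled 3 ways, alike in TUBB and TUBB4B and different in TUBB2A and TUBB2B. Among 19580 coding genes, the 12 capital bases of the α-tubulins opened the coding sequence of 3 genes (0.0153%), which were the α members themselves, and those of TUBB and TUBB4B also opened 3 genes, with TUBB8B as the third. The 9 bases that follow the start codon of TUBB and TUBB4B, from position 4, were also present in TUBG1, where they began at position 7, 1 codon further on. These matches describe letters only.

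TUBA1A (ENSG00000167552) lies on chromosome 12 from 49184686 to 49189080 on the minus strand, and TUBA1B (ENSG00000123416) on the same chromosome and strand from 49127782 to 49131397. TUBA1C (ENSG00000167553) runs on the plus strand from 49188736 to 49274600 and overlaps the 5′ end of TUBA1A, on the opposite strand, by 345 bases. TUBB (ENSG00000196230) lies on chromosome 6 from 30717435 to 30725538 on the plus strand. TUBB2A (ENSG00000137267), from 3153497 to 3157544, and TUBB2B (ENSG00000137285), from 3223324 to 3231730, are neighbours on the minus strand of chromosome 6, 65779 bases apart. TUBB4B (ENSG00000188229) is on chromosome 9 from 137241287 to 137243707 and TUBG1 (ENSG00000131462) on chromosome 17 from 42609641 to 42615238, both on the plus strand. The 7 α- and β-tubulin transcripts have 4 exons each, and TUBG1 has 11. Coding lengths were close, from 1335 bases in TUBB to 1356 in TUBA1A, TUBA1B and TUBG1, while the 3′ UTR ranged from 151 bases in TUBB4B to 1025 in TUBB and 1373 in TUBA1C. Cytidine, the base that APOBEC1 edits, made up 26.7% of the coding bases of TUBA1A and 31.2% of those of TUBG1, the ends of the range.

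Tubulin genes are near copies of each other, which bears on reads of 100 bases. Coding identity was 95.9 to 97.2% between α-tubulins, 84.4 to 98.1% between β-tubulins and 52.3 to 57.4% between classes. TUBB2A and TUBB2B were the closest pair at 98.1%. Of the 100-base windows of the TUBB2A transcript, 55.6% recurred in another gene or elsewhere in the genome, as did 48.7% for TUBB2B, and most of these were shared between the pair. The same share was 37.2% for TUBA1B, 21.2% for TUBA1A, 15.0% for TUBG1, 12.3% for TUBA1C, 5.42% for TUBB and 3.01% for TUBB4B. Values of the members, most of all TUBB2A, TUBB2B and TUBA1B, are therefore uncertain to the extent that reads were divided among copies, and the part of this in the results was not tested. On the opposite strand, exons of TUBA1B-AS1 covered 72.6% of the TUBA1B exons. Opposite-strand genes also covered 23.6% of the exons of TUBA1C, 21.4% of those of TUBB and at most 7.93% in the other members. The authors removed regions shared by genes from their annotation, and the libraries were stranded.

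Tubulin mRNA levels differed widely between genes, and the most abundant were TUBA1B and TUBB. TUBB, the main β-tubulin of dividing cells, had 1196 TPM in the Input, 1729 with PABPC and 881 with PABPN. TUBA1B, a broadly expressed α-tubulin, had 1148, 2142 and 775 TPM in the same order. Both lay above the 99th percentile of PCGs in all 3 fractions.

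A middle group held TUBB4B, TUBG1 and TUBA1C. TUBB4B, a β-tubulin of many tissues and of cilia, had 329 TPM in the Input, 496 with PABPC and 274 with PABPN. TUBG1 had 174, 396 and 220 TPM, and TUBA1C, an α-tubulin of proliferating cells, had 165, 285 and 156. All 3 stood above the 90th percentile in every fraction.

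The lowest levels belonged to isotypes best known from neurons. TUBB2B, a β-tubulin needed for neuronal migration, had 43.7 TPM in the Input, 81.0 with PABPC and 34.9 with PABPN. TUBA1A, the main α-tubulin of postmitotic neurons, had 36.2, 60.0 and 25.0 TPM, and TUBB2A, a β-tubulin abundant in brain, had 26.1, 48.4 and 22.9. In the PABPN IP these 3 were below the PCG median of 38.4 TPM, whereas in the Input and the PABPC IP they were above it. From the lowest member to the highest, TPM spanned 45.9-fold in the Input, 44.2-fold with PABPC and 38.5-fold with PABPN. Summed, the 8 genes made up 0.365% of all TPM in the Input, 0.526% with PABPC and 0.245% with PABPN.

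**Figure D1:**
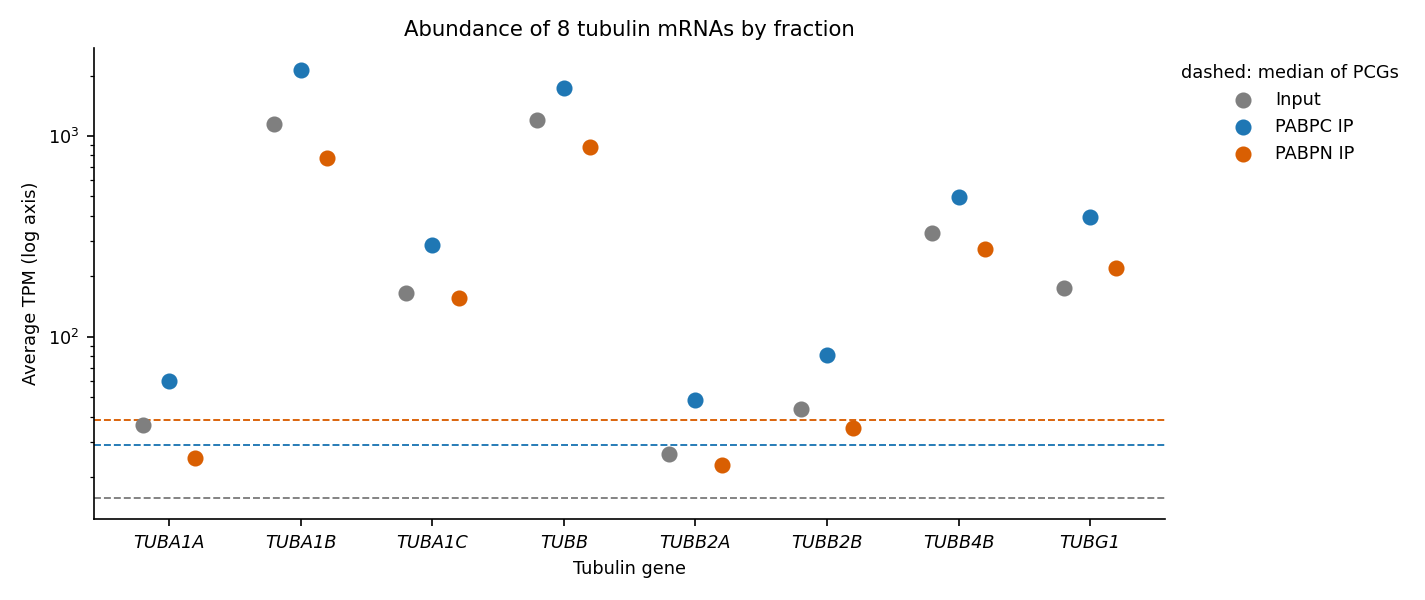
Average TPM (log axis) of each tubulin gene in the Input, PABPC IP and PABPN IP, 1 pooled value per point, with dashed lines at the PCG medians of 15.8, 28.9 and 38.4 TPM. For every gene the PABPC IP point is the highest, and for all but TUBG1 the PABPN IP point is the lowest.

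The comparison of each IP with the Input shows how the abundance of a gene relative to other genes changes in the IP. It does not measure what part of the mRNAs of a gene each poly(A) binding protein holds. In the PABPN IP the tubulin mRNAs were low. After centring on the PCG median (log2 ratios of TPM + 0.5, so that 0 is the typical PCG), 8 of 8 members were lower by at least 0.5 on the log2 scale in the PABPN IP over the Input, against 20.6% of PCGs, and 0 of 8 were higher, against 23.7%. TUBA1B (-1.67), TUBA1A (-1.63) and TUBB (-1.54) stood at percentiles 0.515, 0.567 and 0.682 of all PCGs. The other α- and β-tubulins followed, with TUBB2B at -1.43, TUBB4B at -1.37, TUBB2A at -1.29 and TUBA1C at -1.19, the last at percentile 2.55. TUBG1 was the least low, at -0.77 and percentile 10.2, so that the 7 α- and β-tubulins all lay below the γ-tubulin.

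The centring is large here, since the median PCG had 2.15-fold more TPM in the PABPN IP than in the Input and 1.94-fold more in the PABPC IP. Listed TPM summed to 854272 in the Input, 995724 with PABPC and 975719 with PABPN. Without centring, 7 of 8 members still had less TPM + 0.5 in the PABPN IP than in the Input, against 3.31% of PCGs, and the sign changed for TUBG1 (0.34). At the 0.5 threshold the uncentred count was 2 members lower, TUBA1A and TUBA1B, against 0.583% of PCGs, and 0 higher, against 84.1%. Uncentred folds of TPM, PABPN IP over Input, were 0.675 for TUBA1B, 0.691 for TUBA1A, 0.737 for TUBB, 0.797 for TUBB2B, 0.832 for TUBB4B, 0.878 for TUBB2A, 0.945 for TUBA1C and 1.26 for TUBG1.

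With PABPC the tubulin mRNAs were close to the typical PCG. In centred TPM of the PABPC IP over the Input, 0 of 8 members were higher past the threshold, against 9.02% of PCGs, and 0 of 8 were lower, against 17.4%. Values ran from -0.42 for TUBB and -0.36 for TUBB4B through -0.05 for TUBA1B to 0.23 for TUBG1, the only member above 0. Without centring, all 8 were higher past the threshold, as were 80.2% of PCGs, with folds from 1.45 (TUBB) to 2.28 (TUBG1).

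Set directly against each other, the IPs gave a PABPC bias for every member. In centred TPM of the PABPC IP over the PABPN IP, 8 of 8 were higher, against 29.9% of PCGs, and 0 of 8 lower, against 31.1%. Without centring the count was again 8 of 8, against 22.7% of PCGs. The centred value was greatest for TUBA1B (1.66, percentile 98.7), TUBA1A (1.43, percentile 97.1) and TUBB2B (1.39, percentile 96.7). TUBB2A (1.25) and TUBB (1.16) came next, and TUBA1C (1.05), TUBB4B (1.05) and TUBG1 (1.03) were the lowest, the last at percentile 88.9. The order PABPC IP, Input, PABPN IP in TPM was found in 7 members, all but TUBG1, and in 276 PCGs (2.87%). TUBG1 instead had its lowest TPM in the Input. The PABPC IP was the fraction of highest TPM for 8 of 8 members and for 42.1% of PCGs.

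**Figure D2:**
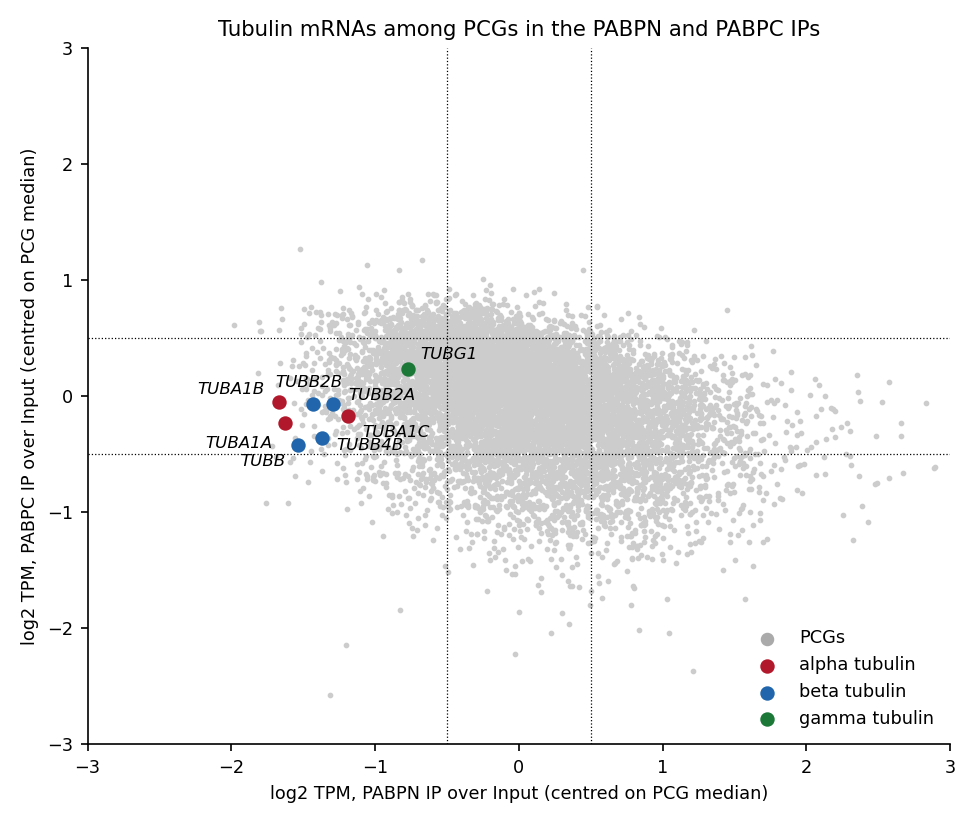
Centred log2 TPM ratio of the PABPN IP over the Input (x axis) against that of the PABPC IP over the Input (y axis) for PCGs (grey) and the 8 tubulin genes (coloured by class), with dotted lines at the threshold of 0.5; the Input is shared by both axes and 40 PCGs lie outside the axes. The α- and β-tubulins form a group at the left edge of the cloud, from -1.67 to -1.19 on the x axis and from -0.42 to -0.05 on the y axis, with TUBG1 apart at -0.77 and 0.23.

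The fraction of highest editing varied among the members. EPKM was highest in the PABPN IP for the 3 α-tubulins, in the Input for TUBB, TUBB4B and TUBG1, and in the PABPC IP for TUBB2A and TUBB2B. Among PCGs the highest value was in the PABPN IP for 28.7%, in the Input for 26.6% and in the PABPC IP for 42.6%. The highest EPKM in the PABPN IP was not confined to α-tubulins, since TUBB4A and TUBB6, β-tubulins outside the members, also had it there. So did 3 tubulins below the TPM filter, the α-tubulins TUBA4A (0.225) and TUBA8 (0.0311) and the β-tubulin TUBB3 (0.148). TUBA1A had an EPKM of 0.0585 in the Input, 0.0345 with PABPC and 0.312 with PABPN. This moved it from percentile 39.7 in the PABPC IP to 99.2 in the PABPN IP, 9.02-fold apart. TUBA1B was nearly level, with 0.132, 0.141 and 0.148. TUBA1C was low in the Input at 0.0343 and higher in both IPs, at 0.138 with PABPC and 0.172 with PABPN.

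Among the 4 β members the highest EPKM was that of TUBB. Its value of 0.679 in the Input, at percentile 99.4, was 5.12-fold the value of 0.133 in the PABPC IP and 6.32-fold that of 0.107 in the PABPN IP. TUBB4B had the same order over a smaller range, with 0.166 in the Input, 0.136 with PABPC and 0.0879 with PABPN. TUBB2A had 0.0365, 0.125 and 0.0837, and was thus highest in the PABPC IP. TUBB2B had 0.0863 in the Input and 0.128 with PABPC, and was listed at 0 with PABPN, as were 27.1% of PCGs. TUBG1 resembled TUBB and TUBB4B in its order, with 0.231 in the Input, 0.0950 with PABPC and 0.0727 with PABPN.

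**Figure D3:**
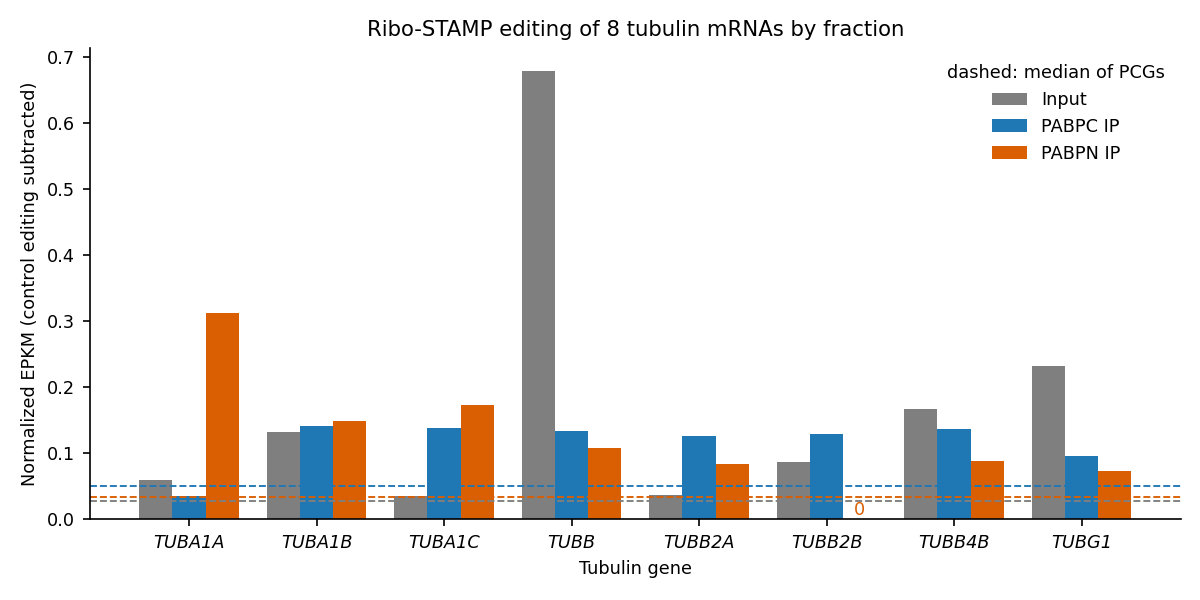
Normalized EPKM of each tubulin gene in the Input, PABPC IP and PABPN IP, 1 pooled value per bar, with dashed lines at the PCG medians of 0.0273, 0.0501 and 0.0334. TUBB in the Input (0.679) and TUBA1A in the PABPN IP (0.312) are the tallest bars, and the PABPC IP bars of TUBA1B, TUBA1C and the 4 β-tubulins are nearly level.

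In the PABPC IP, EPKM was almost the same across 6 of the 7 α- and β-tubulins. Over all 7 it spanned 4.08-fold, a range that held 47.0% of PCGs. Leaving out TUBA1A, a choice made after the values were seen, the 6 others ran from 0.125 (TUBB2A) to 0.141 (TUBA1B), a 1.12-fold range that held 3.59% of PCGs. Over the same 6 genes TPM in the PABPC IP spanned 44.2-fold. In the Input their EPKM spanned 19.8-fold, from 0.0343 to 0.679. Leaving out 1 extreme gene of the 7 also narrowed the range in the other fractions. In the Input it was 4.84-fold without TUBB and held 35.4% of PCGs. In the PABPN IP it was 3.72-fold without TUBB2B and held 20.8% of PCGs. The median of the 6 genes in the PABPC IP was 0.134, and TUBG1 (0.0950) and TUBA1A (0.0345) stood below their range there.

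Relative to PCGs, editing of the members was above the median for 8 of 8 in the Input and for 7 of 8 in each IP. Above the 75th percentile were 5 members in the Input, 6 with PABPC and 6 with PABPN. These counts rested on the reference. Among the 2720 PCGs that reached a TPM of 50 in each IP, whose EPKM medians were 0.0932, 0.104 and 0.0552, the counts above the 75th percentile were 2, 0 and 3. TUBA1A, TUBB2A and TUBB2B did not reach that TPM and were only placed on its scale. On it, the 6 level members of the PABPC IP stood between percentiles 59.2 and 65.9, TUBB in the Input at 98.1 and TUBA1A in the PABPN IP at 97.6.

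Counted at 2-fold (EPKM + 0.01), few members differed between the IPs. For EPKM in the PABPC IP over the PABPN IP, 1 of 8 was higher (TUBB2B, 0.128 against a listed 0), against 36.3% of PCGs, and 1 of 8 lower (TUBA1A, -2.85), against 21.1%. The other 6 lay between -0.29 (TUBA1C) and 0.58 (TUBB4B), around the PCG median of 0.32. Tubulin mRNAs were thus skewed to PABPC in abundance, while most had similar EPKM in both IPs.

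For EPKM in the PABPC IP over the Input, 2 of 8 were higher, TUBA1C (1.75) and TUBB2A (1.54), against 35.1% of PCGs. Lower were 2 of 8, TUBB (-2.27) and TUBG1 (-1.20), against 19.5%. In the PABPN IP over the Input, 3 of 8 were higher, TUBA1A (2.23), TUBA1C (2.04) and TUBB2A (1.01), against 28.4% of PCGs, and 3 of 8 lower, TUBB2B (listed at 0), TUBB (-2.55) and TUBG1 (-1.54), against 29.6%. The members therefore went both ways, in shares not far from those of PCGs in most cases. With a pseudocount of 0.1 the PABPC IP over the Input had 0 members higher, against 6.21% of PCGs, and 1 lower, against 4.26%. The PABPN IP over the Input then had 2 higher, against 4.32%, and 1 lower, against 7.11%.

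EPKM is scaled to library size and not to the amount of the transcript, so it was also divided by TPM. Per 1000 TPM, the members' median was 0.948 in the Input, 0.380 with PABPC and 0.326 with PABPN, where PCGs had medians of 1.61, 1.38 and 0.704. Gene by gene, 7 of 8 members had a higher value with PABPN than with PABPC, all but TUBB2B (listed at 0 with PABPN), against 34.4% of PCGs, and 1 of 8 a lower one, against 59.5%. This count was made after the values were seen, and TPM is its denominator. TPM with PABPC was from 1.80-fold (TUBG1) to 2.76-fold (TUBA1B) that with PABPN in the members. For the median PCG the fold was 0.877 (TPM + 0.5). The count therefore carries the TPM bias given above and is not a separate result on editing. Below the PCG median were 6 of 8 members in the Input, 6 with PABPC and 5 with PABPN. TUBA1B had the lowest value in the Input and the PABPC IP, at 0.115 and 0.0658. TUBA1A in the PABPN IP had 12.5, at percentile 99.5, and TUBB2A had 3.66 there, at percentile 91.0. Across PCGs, EPKM and TPM had Spearman correlations of 0.531 in the Input, 0.452 with PABPC and 0.245 with PABPN, given as a description over genes, which are not independent replicates.

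**Figure D4:**
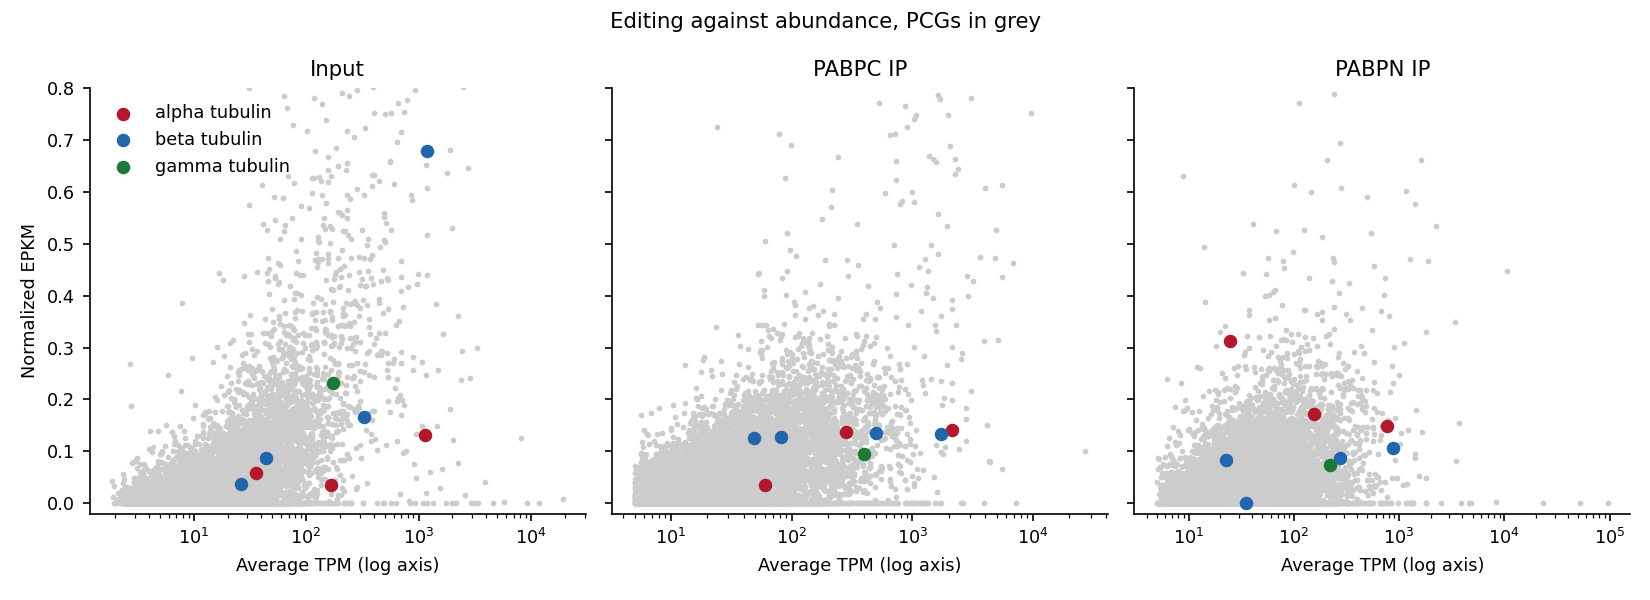
Normalized EPKM against average TPM (log axis) in each fraction for PCGs (grey) and the 8 tubulin genes (coloured by class); 28, 23 and 3 PCGs lie above the axis in the Input, PABPC IP and PABPN IP. In the PABPC IP all but 1 of the α- and β-tubulins lie on a nearly level line between 0.125 and 0.141, and in the Input TUBB is the highest tubulin at 0.679.

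Other genes of the tubulin pathway were read from lists drawn up by function, beside the PCG shares already given. All TPM ratios of these lists are centred, so that lower and higher are relative to the typical PCG. In TPM itself, only TUBB4A, CCT5, CCT7, CCT8, VIM and KRT18 of the listed genes past the TPM filter had less in the PABPN IP than in the Input. None of the autoregulation factors past the TPM filter had the PABPC bias of the tubulins past the threshold. TTC5, which recognises the nascent chain, had 9.53 TPM in the Input, 17.2 with PABPC and 19.4 with PABPN, with EPKM of 0.0645, 0 and 0.0177. SCAPER, the adaptor, was below the TPM filter with 1.69, 1.67 and 6.58 TPM, and its EPKM was 0.0141 in the Input and listed at 0 in both IPs. CNOT11, the CCR4-NOT subunit that SCAPER contacts, had 68.9, 144 and 156 TPM and EPKM of 0.0806, 0.265 and 0.119. Of the 6 factors past the TPM filter, 1 was lower in centred TPM of the PABPN IP over the Input (CNOT3, -0.75, though its TPM rose from 33.9 to 43.3), 1 was higher (CNOT1, 0.58), and in the PABPC IP over the PABPN IP 0 of 6 were higher and 3 lower (CNOT1, -1.22, CNOT2, -0.71, and CNOT10, -0.64). The ends of this list in EPKM of the PABPC IP over the PABPN IP were the CCR4-NOT subunits CNOT10, at 0.0584 with PABPC and listed at 0 with PABPN, and CNOT3, listed at 0 with PABPC and at 0.0614 with PABPN.

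The 2 remaining β-tubulins past the filter were also lower in centred TPM of the PABPN IP over the Input. TUBB4A, a brain isotype, was at -1.49, inside the range of the α- and β-tubulin members, and TUBB6, a β-tubulin of many tissues, at -0.58, outside it and above TUBG1. TUBB4A had EPKM of 0.0521 in the Input and 0.112 with PABPN, with a listed 0 for PABPC, whereas TUBB6 had 0.103, 0.0727 and 0.142 in the Input, PABPC IP and PABPN IP. Neither of the other α-tubulins with a row, TUBA4A and TUBA8, passed the filter. The γ-, δ- and ε-tubulins outside the members went the other way. TUBG2 (1.56), TUBE1 (0.87) and TUBD1 (0.58) were all higher in centred TPM of the PABPN IP over the Input. TUBG1 and its near copy TUBG2 lay on opposite sides only after centring, since TPM of both was higher in the PABPN IP than in the Input.

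mRNAs of chaperones that fold tubulin rose less than the typical PCG from the Input to the PABPN IP, or fell. TPM was higher in the PABPN IP than in the Input for all 6 prefoldin subunits and 5 of 8 CCT subunits. All 6 prefoldin subunits, which hand nascent tubulin to the CCT chaperonin, were lower in centred TPM of the PABPN IP over the Input, with a median of -0.66, and all 6 were higher in the PABPC IP over the PABPN IP. The 8 CCT subunits were all lower in centred TPM of the PABPN IP over the Input, with a median of -0.97, against a median of -1.40 for the 8 members, and 6 of 8 were higher in the PABPC IP over the PABPN IP, all but CCT2 (0.29) and CCT6A (0.42). Without centring, in an alternative added after the data were seen, 0 subunits of either complex were lower past the threshold. In EPKM of the PABPC IP over the PABPN IP, prefoldin ran from PFDN6 (0.0894 against a listed 0) to PFDN2 (log2 -1.02). The CCT subunits ran from TCP1 (log2 2.95) to CCT5, listed at 0 with PABPC and at 0.0229 with PABPN. The cofactors that assemble the dimer were mixed, with 3 of 6 lower (TBCB, ARL2 and TBCD) and 1 higher (TBCC, 1.40) in centred TPM of the PABPN IP over the Input, and EPKM ratios of the IPs from TBCB (log2 0.42) to TBCC (0.0735 with PABPC against a listed 0). TBCE, listed under more than 1 identifier, was not counted.

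The γ-tubulin ring complex, tubulin-modifying and microtubule-associated or severing lists showed no common direction in centred TPM of the PABPN IP over the Input. The microtubule-associated and severing proteins leaned to lower values in centred TPM of the PABPC IP over the Input. There, 7 of 15 were lower, against 17.4% of PCGs, and 0 were higher, against 9.02%. Of 9 γ-tubulin ring complex genes, 3 were higher (TUBGCP6, TUBGCP4 and TUBGCP5) and 2 lower (MZT1 and MZT2B) in centred TPM of the PABPN IP over the Input, and the ends in EPKM of the PABPC IP over the PABPN IP were MZT2B (log2 3.63) and TUBGCP6 (a listed 0 against 0.0924). TUBGCP6 also had the highest centred TPM ratio of any gene of these lists past the TPM filter in the PABPN IP over the Input, at 2.39. Of 13 tubulin-modifying enzymes, 3 were higher (TTL, TTLL4 and HDAC6) and 3 lower (TTLL12, SIRT2 and SVBP) in the same centred ratio, with EPKM ratios of the IPs from TTLL12 (log2 3.63), of the tyrosine ligase family, to the tubulin deacetylase HDAC6 (a listed 0 against 0.0478). Of 15 microtubule-associated and severing proteins, 3 were higher (FIGN, SPAST and CLASP2) and 5 lower (STMN1, MAPRE1, MAP7D1, MAPRE2 and MAP4) in that ratio, and EPKM ratios of the IPs ran from the severing enzyme SPAST (0.0358 against a listed 0) to CKAP5 (log2 -3.21), a microtubule polymerase. Among the HEK293T markers the ends in EPKM were NEFL (log2 2.87) and VIM (log2 -2.27), and 4 of 5 (VIM, KRT18, NEFL and NEFM) were lower in centred TPM of the PABPN IP over the Input, while LIN28B was higher (1.01). Beyond the ends of each list, genes named for these counts were chosen after their values were seen.

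**Figure D5:**
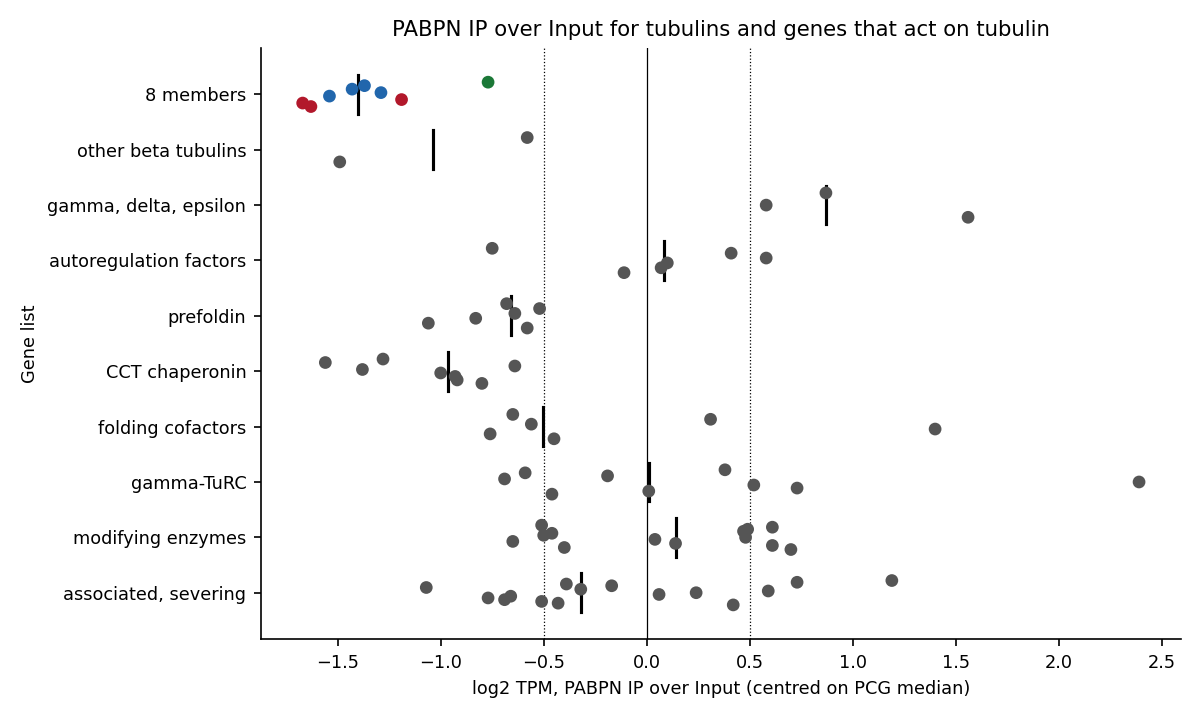
Centred log2 TPM ratio of the PABPN IP over the Input for the 8 tubulin genes (coloured by class as α red, β blue, γ green) and for genes of the pathway lists past the same TPM filter (grey), with the list median as a bar and dotted lines at the threshold of 0.5. Among the members and the pathway lists, the members have the lowest median (-1.40), followed by the other β-tubulins, CCT (-0.97) and prefoldin (-0.66). The HEK293T markers (median -0.89) are left out of this order, and TUBG2, TUBE1 and TUBD1 lie to the right.

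By distance over 6 values (log2 EPKM and log2 TPM in the 3 fractions), the PCGs outside the lists nearest to the median profile of the 7 α- and β-tubulins were MTA2 (0.57), PKM (0.64), FAM189B (0.74), GOT2 (0.75) and YWHAG (0.79). MTA2, a subunit of the NuRD chromatin complex, had EPKM of 0.0671, 0.136 and 0.120 and TPM of 125, 256 and 151 in the Input, PABPC IP and PABPN IP. PKM is the pyruvate kinase of glycolysis, GOT2 the mitochondrial aspartate aminotransferase and YWHAG a 14-3-3 protein. Distances of the members themselves were 1.29 for TUBA1C, 1.64 for TUBG1 and 1.76 for TUBB4B. They were 4.67 for TUBA1A, 4.70 for TUBA1B, 4.71 for TUBB2A, 4.91 for TUBB2B and 5.40 for TUBB, where the median PCG stood at 6.35. The median profile was thus far from most of the α- and β-tubulins it was taken from, and nearer to TUBG1, which is outside it. Nearest to TUBG1 were PRDX4 (0.33), a peroxiredoxin of the endoplasmic reticulum, PRPS1 (0.54), which makes the nucleotide precursor PRPP, and SELENOF (0.67), a selenoprotein. With an EPKM pseudocount of 0.1, HNRNPUL1 took the place of SELENOF. The 5 genes nearest to the median profile were the same at that pseudocount.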

How the data were processed

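Ribo-STAMP libraries of the Input and both IPs were rRNA-depleted, stranded and paired-end. Alignment by the authors used STAR on hg38, and they kept C-to-U edits above a confidence score. The deposited EPKM is a signal from which the authors subtracted control editing, and neither how replicates were combined nor which samples entered each TPM is given in the sources used here. The deposited TPM, treated as a score because each gene repeats on 3 lines, came from featureCounts 2.0.2 on an annotation without overlapping regions or readthrough transcripts, exonic and intronic values added.

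Python 3.11.15, pandas 2.3.3, NumPy 2.4.6 and matplotlib 3.10.9 were used. Percentiles and shares refer to PCGs that reached a TPM of 5 in each IP, and ratios used pseudocounts of 0.01 (EPKM) and 0.5 (TPM). The computations were tested on simulated data. Genes named by rule are the members, TTC5, SCAPER and CNOT11, the highest and lowest EPKM ratio of the IPs in each list, and the nearest PCGs, and other list genes were named after their values were seen. Members and lists were chosen with earlier results of these data known. Positions and sequences are from GENCODE release 44. Alternatives changed pseudocounts, thresholds, centring and the reference genes.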

Additional observations from a re-analysis of the deposited data

How the results depend on the processing

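Of 70 counts recomputed under alternatives, 58 stayed within 1.5 times the main count. The other 12 were as follows. With a pseudocount of 0.1, EPKM in the PABPC IP over the Input had 0 members higher and 1 lower, and the PABPN IP over the Input had 1 lower. Without centring, 2 members were lower in TPM of the PABPN IP over the Input and 8 higher in the PABPC IP over the Input, and 0 prefoldin and 0 CCT subunits were lower. With a threshold of 1, 1 prefoldin and 4 CCT subunits were lower. Among PCGs with TPM of at least 50, the members above the 75th percentile of EPKM were 2, 0 and 3 in the Input, PABPC IP and PABPN IP. The alternatives for prefoldin and CCT were chosen after the data were seen. Of 120 single ratios, 1 past its threshold changed sign, TUBG1 in TPM of the PABPN IP over the Input (0.34 without centring). The shifts without centring equal the PCG medians that centring removes, and other causes were not tested. No paired analysis was possible because replicates are pooled in each column, and leaving out replicates was not run for the same reason.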

Other observations

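The table also lists 8 tubulin genes that are not protein-coding, which belong to no comparison above. TUBAP2, a processed α-tubulin pseudogene, had EPKM of 0 in the Input, 0.0633 with PABPC and 0.497 with PABPN, with no TPM given. Its EPKM was thus higher with PABPN than with PABPC, as in TUBA1A (0.312 against 0.0345). In TUBA1B (0.148 against 0.141) and TUBA1C (0.172 against 0.138) the IPs differed little. TUBAP2 shares 6.48% of the 100-base windows of TUBA1B and 0.636% of those of TUBA1A. TUBB2BP1 had EPKM of 0, 0.130 and 0.129 at a TPM of at most 0.0713 in any fraction, and holds 10.1% of the windows of TUBB2B. TUBA5P and TUBBP5 were the 2 that reached a TPM of 5 in each IP.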
